A study of Mus musculus with 9 samples.

Results

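The lysosomal cathepsin, V-ATPase and LAMP genes were measured in mouse liver tumours as 42 of the 32761 genes in the deposited table. They were chosen by name alone: cathepsins with a single letter after Cts (14 genes, without Ctsw), names that begin with Atp6v (24) and names that begin with Lamp and a digit (4). Of the Atp6v rows, 21 are subunit genes of the proton pump (12 of V1 and 9 of V0), 2 are pseudogenes of Atp6v0c, and 1, Atp6v1fnb, is a neighbour of Atp6v1f that carries its name. With a mean of at least 0.5 FPKM over the 9 libraries, 33 of the 42 could be tested: 12 cathepsins, 19 Atp6v rows and 2 LAMP genes. FPKM scales the fragments of a gene to transcript length and library size, so levels can be compared between genes.

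Lysosomes break down proteins, lipids and sugars delivered by endocytosis, phagocytosis and autophagy. The V-ATPase acidifies them: its V1 sector in the cytosol hydrolyses ATP, and its V0 sector in the membrane carries protons inward. Cathepsins are the proteases that work in that acid, most of them cysteine proteases, with cathepsins D and E of the aspartic type and A and G of the serine type. LAMP proteins are heavily glycosylated and coat the inner face of the lysosomal membrane. Macrophages hold many lysosomes, and in antigen-presenting cells cathepsin S trims the invariant chain from MHC class II molecules.

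The samples were tumours grown in the liver from Hepa1-6-luc, 1 luciferase-marked mouse hepatoma line, and all were taken on day 14. Of the 6 treatment groups of the study, 3 were sequenced. A Control group, a group given free lenvatinib with an antibody against PD1 (Lenvatinib+anti-PD1, "lenvatinib tumours") and a group given a nanocluster with the same antibody (Co+Len@OVA+anti-PD1, "nanocluster tumours") were sequenced, with 3 libraries each. Lenvatinib inhibits receptor kinases of the VEGF and FGF families, and PD1 signalling dampens T cell responses. Each dose of antibody was 50 µg, repeated at intervals of 4 days. Nanocluster (2 mg/mL) or a matched amount of free lenvatinib went into the tail vein at intervals of 3 days. The labels give neither the mouse strain, age or sex, nor what Control mice received, nor what Co stands for, and the parts of the nanocluster cannot be told apart in these groups. Whole tumour pieces were measured, so fewer cells of a type and less RNA per cell cannot be told apart.

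In each group library 3 lay between the other libraries. Where libraries 1 and 2 were more than 2-fold apart, library 3 held the middle value for 95.3% of tested genes in nanocluster tumours, 93.8% in lenvatinib tumours and 94.3% in Control, against 44.4% at most when library 1 or 2 was placed between the others in the same way. Fitted as a weighted mean of libraries 1 and 2, over genes that averaged 5 FPKM or more and lay over 2-fold apart in those, library 3 had a median residual of 0.0704, 0.0556 and 0.063 (log2) in nanocluster, lenvatinib and Control tumours. Libraries 1 and 2 fitted from the others in the same way had residuals of 0.416 to 2.51. Library 3 was thus close to a mixture of the other libraries of its group. If it is not a separate tumour, the p-values from 9 libraries are too small. Each count of members is therefore also given from libraries 1 and 2 alone (6 libraries, 3 residual degrees of freedom). Control library 1 stood apart as well: it was the lowest of its group for 28 of the 33 tested members. The hepatoma marker Afp was present in all 9 libraries at 233 to 439 FPKM. Skeletal muscle markers were summed to 3138 and 1242 FPKM in lenvatinib libraries 2 and 3, and neuron markers to 35.5 and 18.5 FPKM in nanocluster libraries 1 and 3, against at most 31.9 and 1.29 FPKM in the other libraries.

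The promoter sequences of 5 members are shown because they hold letters that lysosomal or interferon-regulated genes are known for. They, the window and the motifs were chosen after the matches were seen. The transcription factor TFEB and its relatives bind the CLEAR element, which has CACGTG at its core, and interferon-regulated genes often carry GAAA repeated after a gap of 2 bases, a core of the interferon-stimulated response element. The 250 bases before the start of each gene, from RefSeq (GRCm38.p6), are given 5′ to 3′ on the gene's strand, with CACGTG in capitals in the first 4 and that repeat with its gap in capitals in Ctss.
Lamp1 (chr8:13158911-13159160, plus strand): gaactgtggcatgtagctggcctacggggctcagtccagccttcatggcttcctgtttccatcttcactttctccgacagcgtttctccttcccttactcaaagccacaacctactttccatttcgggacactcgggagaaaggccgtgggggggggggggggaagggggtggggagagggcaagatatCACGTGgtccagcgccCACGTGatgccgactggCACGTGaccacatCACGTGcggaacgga
Ctsd (chr7:142387828-142388077, minus strand): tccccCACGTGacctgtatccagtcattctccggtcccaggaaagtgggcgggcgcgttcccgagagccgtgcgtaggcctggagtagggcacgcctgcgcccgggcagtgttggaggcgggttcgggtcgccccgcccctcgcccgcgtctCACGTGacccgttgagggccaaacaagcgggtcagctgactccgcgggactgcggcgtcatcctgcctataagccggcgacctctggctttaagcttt
Ctsa (chr2:164833523-164833772, plus strand): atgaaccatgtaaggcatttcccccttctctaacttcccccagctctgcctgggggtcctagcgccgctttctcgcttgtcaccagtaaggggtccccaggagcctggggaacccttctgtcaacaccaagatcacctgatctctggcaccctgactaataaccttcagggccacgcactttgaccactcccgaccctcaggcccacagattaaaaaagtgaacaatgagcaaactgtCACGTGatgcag
Atp6v1a (chr16:44139260-44139509, minus strand): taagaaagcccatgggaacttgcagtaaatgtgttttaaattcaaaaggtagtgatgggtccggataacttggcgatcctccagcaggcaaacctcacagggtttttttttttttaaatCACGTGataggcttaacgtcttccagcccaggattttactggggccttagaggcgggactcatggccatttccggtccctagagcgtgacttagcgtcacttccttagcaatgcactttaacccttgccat
Ctss (chr3:95526536-95526785, plus strand): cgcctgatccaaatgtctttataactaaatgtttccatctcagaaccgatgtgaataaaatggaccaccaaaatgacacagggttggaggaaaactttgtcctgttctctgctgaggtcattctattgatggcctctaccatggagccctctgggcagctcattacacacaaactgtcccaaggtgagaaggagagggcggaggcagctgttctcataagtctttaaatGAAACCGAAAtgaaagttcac
Lamp1 held 4 copies of CACGTG in this window and Ctsd 2, with single copies in Ctsa and Atp6v1a. Of the 31 members in the promoter table, 7 held CACGTG (22.6%), against 6.86% of all 27025 genes there. Those not shown above were Atp6v0b, Ctsl and Ctsf. Both strands were searched, and CACGTG reads the same on both. The longer TCACGTGA, which contains CACGTG, was found in Ctsa, Ctsd and Atp6v1a, 3 of 31 members (9.68%) against 0.907% of all genes. The repeat of GAAA, was found in Ctss, Lamp1, Atp6v1d and Lamp3, 4 of 31 (12.9%) against 3.46%. The longest form of CACGTG searched, with GT before it and AC after it, was found in 0 of the 31 members and 0.27% of all genes. Of the other motifs, TTCNNNGAA (the STAT motif) was found in 9.68% of members against 8.13% of all genes. GAGGAAGT (an ETS motif) was found in 3.23% against 2.79%. These are matches of letters, not measured binding sites.

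Cathepsins made up a large pool of transcript, and 4 of them held most of it. Summed over the 14 genes, cathepsins reached 2078, 2036 and 2063 FPKM in nanocluster tumours, 927, 957 and 967 in lenvatinib tumours, and 878, 2006 and 1644 in Control. The nanocluster libraries were all above the lenvatinib libraries, while Control spanned both levels, with library 1 the lowest of all 9. Ctsd, Ctss, Ctsb and Ctsz together held 74% to 86.7% of the summed cathepsin FPKM in every library. The share of Ctss alone moved most in Control, at 13.5% in library 1 and 36.6% and 31.3% in libraries 2 and 3, against 15.6% to 16.2% in lenvatinib tumours and 26% to 29.1% in nanocluster tumours.

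**Figure D1:**
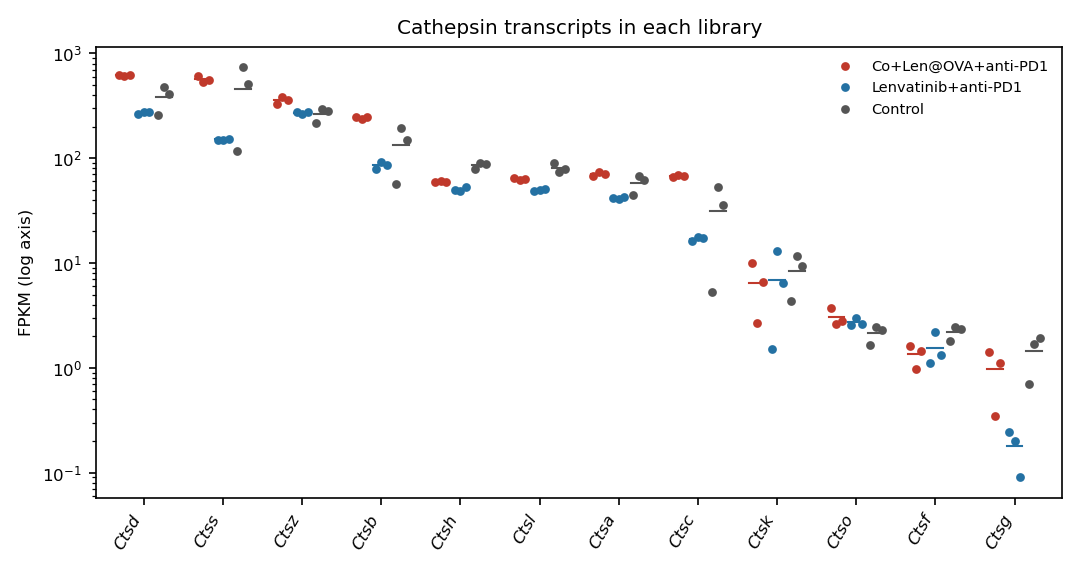
FPKM (log axis) of the 12 tested cathepsins in each library, ordered by mean level. Points are libraries 1 to 3 from left to right within a group and the short line is the group mean. The nanocluster libraries lie above the lenvatinib libraries for Ctsd, Ctss, Ctsb, Ctsa and Ctsc, and Control library 1 lies far below the other controls for Ctss and Ctsc.

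Ctsd encodes the main aspartic protease of lysosomes. It stood at 619, 608 and 621 FPKM in nanocluster tumours, 262, 278 and 278 in lenvatinib tumours and 259.5, 479.8 and 414 in Control. Every nanocluster library was above every other library. Ctsd rose in nanocluster tumours against Control (log2 fold change 0.73 ± 0.19 SE, adjusted p = 0.0241, limma) and against lenvatinib tumours (log2 fold change 1.18 ± 0.19 SE, adjusted p = 0.00365). Against Control, it did not pass when any 1 nanocluster library was left out (adjusted p up to 0.0725). Nor did it pass in a limma fit of nanocluster and Control libraries alone (adjusted p = 0.0676). Ctse, the aspartic protease of epithelial and immune cells, was under the level for testing, at 0.55, 0.449 and 0.465 FPKM in nanocluster tumours, 0.136, 0.089 and 0.0778 in lenvatinib tumours and 0.464, 1.15 and 0.827 in Control. The lenvatinib libraries were the lowest, and the other groups overlapped.

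The cysteine cathepsins S, B and C, which are abundant in macrophages, differed widely between the controls. Ctss was at 604, 529 and 561 FPKM in nanocluster tumours, 150.2, 149 and 154 in lenvatinib tumours and 118, 734 and 514 in Control. Control library 1 was below all lenvatinib libraries and Control library 2 above all nanocluster libraries. Ctss rose between the treatments (log2 fold change 1.89 ± 0.57 SE, adjusted p = 0.0399, limma), a call lost when any 1 treated library or Control replicate 3 was left out (adjusted p up to 0.104). The spread in that fit includes the controls: fitted to the 2 treated groups alone, the adjusted p was 7.39e-06. With libraries 1 and 2 of each group alone it was 0.302. Against Control, Ctss had log2 fold change 0.67 ± 0.57 SE, adjusted p = 0.385 in nanocluster tumours and log2 fold change -1.23 ± 0.57 SE, adjusted p = 0.154 in lenvatinib tumours, neither past the threshold. Without Control replicate 1 it fell in lenvatinib tumours (log2 fold change -2.02, adjusted p = 0.000179). That fit keeps Control libraries 2 and 3, and library 3 was close to a mixture that includes library 2. Its spread is therefore too small if library 3 is not a separate tumour. With libraries 1 and 2 of each group alone, the adjusted p in lenvatinib tumours was 0.602.

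Ctsb, a broadly expressed endo- and exopeptidase, was at 249.7, 239 and 245 FPKM in nanocluster tumours, 78.2, 93 and 86.4 in lenvatinib tumours and 56.5, 195 and 150.3 in Control. The treated groups did not overlap, and Ctsb rose between them (log2 fold change 1.51 ± 0.39 SE, adjusted p = 0.0228, limma). Leaving out any lenvatinib library or nanocluster library 1 or 3 lost the call (adjusted p up to 0.0691). Against Control it did not pass in nanocluster tumours (log2 fold change 1.04 ± 0.39 SE, adjusted p = 0.0699), and did without Control replicate 1 (adjusted p = 0.0161). With libraries 1 and 2 of each group alone, the adjusted p of Ctsb against Control was 0.279. Ctsc activates the granule serine proteases of cytotoxic lymphocytes, neutrophils and mast cells by trimming their N-terminal dipeptides. It was at 66.5, 68.7 and 68 FPKM in nanocluster tumours, 16.1, 17.8 and 17.4 in lenvatinib tumours and 5.26, 53.4 and 35.8 in Control. The treated groups were tight and apart from each other, but with the wide controls in the same fit the difference did not pass (log2 fold change 1.95 ± 0.70 SE, adjusted p = 0.0685). In a fit of the treated groups alone its adjusted p was 3.51e-06, and with libraries 1 and 2 of each group alone it was 0.358.

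Ctsh and Ctsl went the opposite way to Ctsd, Ctss, Ctsb and Ctsc in nanocluster tumours against Control, where of those only Ctsd had passed. In lenvatinib tumours against Control all of these genes had negative log2 fold changes. Ctsh, an aminopeptidase of lysosomes, was at 59.4, 60.9 and 59.9 FPKM in nanocluster tumours, 50.0, 48.6 and 53 in lenvatinib tumours and 78.9, 89.1 and 87.9 in Control. Ctsl, a strong endopeptidase of many cell types, was at 64.3, 62.4 and 63.3, 48.5, 49.6 and 50.3 and 90.5, 73.8 and 79.5 FPKM in the same order of groups. For both genes all 3 controls were above all 6 treated libraries, and the lenvatinib libraries were the lowest. Ctsh fell in nanocluster tumours (log2 fold change -0.50 ± 0.06 SE, adjusted p = 0.00128, limma) and in lenvatinib tumours (log2 fold change -0.75 ± 0.06 SE, adjusted p = 0.000285). Ctsl fell in both as well, by 0.35 ± 0.08 (adjusted p = 0.0102) and by 0.71 ± 0.08 (adjusted p = 0.000722) on the log2 scale (SE). The 2 comparisons use the same controls. Leaving out any 1 library kept these 4 calls. Between the treatments Ctsh and Ctsl were higher in nanocluster tumours, (log2 fold change 0.25 ± 0.06 SE, adjusted p = 0.0235, limma, and log2 fold change 0.35 ± 0.08 SE, adjusted p = 0.0109), and the call of Ctsh was lost when any 1 nanocluster library, or lenvatinib library 1 or 2, was left out (adjusted p up to 0.0783). With median-of-ratios scaling neither passed (log2 fold change 0.15, adjusted p = 0.101 for Ctsh and log2 fold change 0.25, adjusted p = 0.113 for Ctsl). As FPKM, Ctsl was 0.765 of Ctss in Control library 1 and 0.101 and 0.155 of it in the other controls, against 0.323 to 0.332 in lenvatinib tumours and 0.106 to 0.118 in nanocluster tumours.

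Ctsz, a carboxypeptidase, and Ctsa, a serine carboxypeptidase that also protects lysosomal neuraminidase and beta-galactosidase, were higher in nanocluster than in lenvatinib tumours. Ctsz was at 329, 387 and 361 FPKM in nanocluster tumours, 275, 262 and 274 in lenvatinib tumours and 216, 293 and 284 in Control. It rose against Control (log2 fold change 0.45 ± 0.12 SE, adjusted p = 0.0235, limma) and between the treatments (log2 fold change 0.41 ± 0.12 SE, adjusted p = 0.0373), but leaving out nanocluster library 2 or 3 lost both calls (adjusted p up to 0.0743 and 0.107). Any lenvatinib library or Control replicate 3 left out also lost the call between the treatments, and median-of-ratios scaling lost both (log2 fold change 0.30, adjusted p = 0.0667, then log2 fold change 0.30, adjusted p = 0.0654). The call against Control was also lost in a fit of nanocluster and Control libraries alone (adjusted p = 0.0677). Ctsa was at 68.2, 73.9 and 70.3 FPKM in nanocluster tumours, 41.8, 41.2 and 42.9 in lenvatinib tumours and 44.4, 68 and 61.5 in Control, and rose between the treatments (log2 fold change 0.75 ± 0.14 SE, adjusted p = 0.00605), a call kept without any 1 library. Its controls 2 and 3 lay just under the nanocluster libraries and control 1 near the lenvatinib libraries.

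The remaining cathepsins were low. Ctsk, the collagen-degrading cathepsin of osteoclasts and some fibroblasts, was at 10.1, 2.67 and 6.56 FPKM in nanocluster tumours, 1.51, 12.9 and 6.42 in lenvatinib tumours and 4.38, 11.7 and 9.32 in Control, and the groups overlapped throughout. The 6 fibroblast markers summed to 529.7, 369 and 459.5, 243, 564 and 375 and 278, 486 and 414 FPKM in the same libraries. That sum had its lowest and highest values within each group in the same libraries as Ctsk, but the marker Dcn did not, at 117, 168 and 145 FPKM in nanocluster tumours and 131, 127 and 132 in Control. Their part in Ctsk was not tested. Ctsg, a serine protease of neutrophil and mast cell granules, was at 1.42, 0.35 and 1.12 FPKM in nanocluster tumours, 0.244, 0.199 and 0.0905 in lenvatinib tumours and 0.697, 1.68 and 1.92 in Control. It fell in lenvatinib tumours (log2 fold change -1.45 ± 0.36 SE, adjusted p = 0.0224, limma), and the call was lost without lenvatinib library 2 or 3 or Control replicate 2 or 3 (adjusted p up to 0.0813). The 4 granulocyte precursor markers summed to 9.37, 9.2 and 8.89 FPKM in nanocluster tumours, 1.85, 2.28 and 2.13 in lenvatinib tumours and 10.7, 8.67 and 9.09 in Control. The 7 neutrophil markers summed to 155, 65.9 and 107, 22.5, 32.5 and 34.7 and 111, 122 and 115 FPKM. The 6 mast cell and basophil markers summed to 27, 10.4 and 18.9, 2.52, 4.96 and 3.26 and 2.51, 5.32 and 6.32 FPKM. In Control library 1 the precursor sum was the highest of its group and Ctsg the lowest. The part of these cells in the fall of Ctsg was not tested. Ctso (1.65 to 3.75 FPKM over the 9 libraries) and Ctsf (0.968 to 2.45 FPKM), both lysosomal cysteine proteases, passed in no comparison. The placental cathepsin Ctsj was listed above 0 in Control library 1 only, at 0.037 FPKM.

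Of the V-ATPase subunit genes, 5 of 9 tested in V1 and 4 of 9 in V0 rose in nanocluster against lenvatinib tumours, and none fell, beside 17.3% of all tested genes higher and 12% lower. In nanocluster tumours against Control, 4 V1 and 3 V0 genes rose and 1 V0 gene fell (20.9% and 12.7% of all genes). In lenvatinib tumours 1 V1 gene rose, and 1 V1 and 2 V0 genes fell (13.8% and 9.87%). In V1, the catalytic subunit A gene Atp6v1a was at 21.6, 14.8 and 19 FPKM in nanocluster tumours, 8.45, 8.91 and 8.65 in lenvatinib tumours and 8.95, 15.8 and 13.6 in Control. The lenvatinib libraries were all lower than the nanocluster libraries, and Control library 1 sat just above them. Atp6v1a rose between the treatments (log2 fold change 1.04 ± 0.20 SE, adjusted p = 0.00802, limma) without losing the call in any library left out. Atp6v1b2, the B subunit of most tissues, was at 34.8, 33 and 34.9 FPKM in nanocluster tumours, 24.5, 25.4 and 25.8 in lenvatinib tumours and 23.4, 39.8 and 35.4 in Control, and did not pass between the treatments (log2 fold change 0.43 ± 0.17 SE, adjusted p = 0.0818), although the treated groups did not overlap. Its adjusted p was 0.000972 in a fit of the treated groups alone, and 0.397 with libraries 1 and 2 of each group alone.

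Atp6v1f, Atp6v1c1 and Atp6v1d, subunits of the rotor and stalks of V1, rose in both comparisons of the nanocluster. Atp6v1f was at 50.8, 53.3 and 52.7 FPKM in nanocluster tumours, 40.1, 39.1 and 40.1 in lenvatinib tumours and 42.2, 42.3 and 41.4 in Control, and its nanocluster libraries were above the 6 others. It rose against Control (log2 fold change 0.31 ± 0.05 SE, adjusted p = 0.00238, limma) and against lenvatinib tumours (log2 fold change 0.39 ± 0.05 SE, adjusted p = 0.000733), and the first call was lost with median-of-ratios scaling (log2 fold change 0.16, adjusted p = 0.12). Atp6v1c1 stood at 17.4, 17.6 and 18, 15.2, 14.9 and 15.6 and 13, 12.9 and 13.7 FPKM in nanocluster, lenvatinib and Control libraries, with no overlap between any groups. It rose in nanocluster tumours against Control (log2 fold change 0.41 ± 0.05 SE, adjusted p = 0.00105) and between the treatments (log2 fold change 0.21 ± 0.05 SE, adjusted p = 0.0167), the second lost without nanocluster library 3 or lenvatinib library 1 or 2 (adjusted p up to 0.0762). It was the 1 member that rose in lenvatinib tumours against Control (log2 fold change 0.20 ± 0.05 SE, adjusted p = 0.0244), a call lost when any lenvatinib library, Control replicate 2 or 3 or nanocluster replicate 3 was left out. With lenvatinib and Control libraries fitted alone, the adjusted p of this call was 0.0527. With median-of-ratios scaling it passed neither there (log2 fold change 0.15, adjusted p = 0.113) nor between the treatments (log2 fold change 0.11, adjusted p = 0.194). Atp6v1d was at 11.4, 8.4 and 9.61 FPKM in nanocluster tumours, 5.43, 6.58 and 6.08 in lenvatinib tumours and 5.15, 7.21 and 6.92 in Control, and rose against Control (log2 fold change 0.57 ± 0.15 SE, adjusted p = 0.0213) and between the treatments (log2 fold change 0.65 ± 0.15 SE, adjusted p = 0.0146). The first call was lost without nanocluster library 1 or 3 (adjusted p up to 0.063) and the second without lenvatinib library 1 (0.053). With nanocluster and Control libraries fitted alone, the first did not pass either (adjusted p = 0.0541). The regulatory subunit H gene Atp6v1h was at 6.82 to 7.77 FPKM in nanocluster tumours, 6.33 to 6.74 in lenvatinib tumours and 7.44 to 8.01 in Control. It fell in lenvatinib tumours (log2 fold change -0.24 ± 0.07 SE, adjusted p = 0.04), and lost that call without any lenvatinib library, Control replicate 2 or 3 or nanocluster replicate 3 (adjusted p up to 0.123). Fitted to lenvatinib and Control libraries alone, its adjusted p was 0.0533. The peripheral stalk genes Atp6v1e1 (25.9 to 29.5 FPKM over the 9 libraries) and Atp6v1g1 (78.6 to 98.8 FPKM) passed in no comparison.

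**Figure D2:**
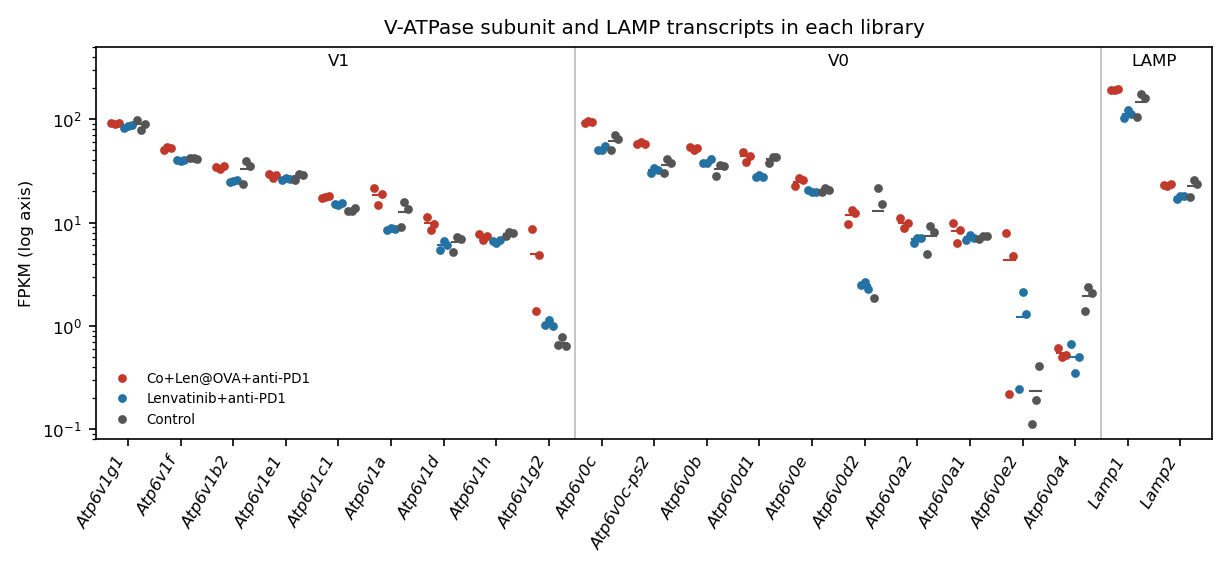
FPKM (log axis) of the tested V1 and V0 rows, including the pseudogene Atp6v0c-ps2, and of the 2 tested LAMP genes. Points are libraries 1 to 3 from left to right within a group and the short line is the group mean. Atp6v0a4 is lower in both treated groups than in Control, and Atp6v0d2 in lenvatinib tumours is near Control library 1 and below the other controls.

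In V0, the proton-carrying ring is built mainly from the c subunit, encoded by Atp6v0c. Atp6v0c was at 92.1, 96.6 and 93.7 FPKM in nanocluster tumours, 50.3, 50.8 and 54.7 in lenvatinib tumours and 50.1, 69.8 and 64.9 in Control. All nanocluster libraries were above the others, and Atp6v0c rose against Control (log2 fold change 0.62 ± 0.11 SE, adjusted p = 0.00548, limma) and against lenvatinib tumours (log2 fold change 0.85 ± 0.11 SE, adjusted p = 0.00129). The row of its pseudogene Atp6v0c-ps2 followed it, at 57.5, 60.2 and 57.7, 30.0, 33.8 and 32.1 and 30.2, 40.8 and 37.3 FPKM. Fragments of near-identical copies could have been divided between these rows, so both levels are uncertain. The other ring subunit gene, Atp6v0b, was at 53.3, 50.3 and 52.8 FPKM in nanocluster tumours, 37.4, 37.8 and 41.5 in lenvatinib tumours and 28.3, 36 and 35.6 in Control. It rose against Control (log2 fold change 0.65 ± 0.10 SE, adjusted p = 0.0025) and between the treatments (log2 fold change 0.42 ± 0.10 SE, adjusted p = 0.0154), the second lost without nanocluster library 3 or lenvatinib library 1 (adjusted p up to 0.058). Atp6v0e, a small membrane subunit, rose in the same comparisons (log2 fold change 0.26 ± 0.07 SE, adjusted p = 0.0271, then log2 fold change 0.31 ± 0.07 SE, adjusted p = 0.016), and the calls were lost without nanocluster library 3 among others (adjusted p up to 0.0964 and 0.0667). Median-of-ratios scaling also lost both (log2 fold change 0.11, adjusted p = 0.324, then log2 fold change 0.21, adjusted p = 0.0871). The first was lost as well with nanocluster and Control libraries fitted alone (adjusted p = 0.0758).

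The d subunit couples the V1 rotor to the ring, and it has a common and a restricted isoform. Atp6v0d1, the form of most tissues, was at 48.5, 38.7 and 43.7 FPKM in nanocluster tumours, 27.5, 29 and 27.6 in lenvatinib tumours and 37.5, 43.3 and 42.7 in Control. The lenvatinib libraries were below all others, and Atp6v0d1 fell against Control (log2 fold change -0.55 ± 0.09 SE, adjusted p = 0.00496, limma) and was higher in nanocluster than in lenvatinib tumours (log2 fold change 0.62 ± 0.09 SE, adjusted p = 0.00206), in both cases without any 1 library as well. Atp6v0d2, the form of osteoclasts and some macrophages, was at 9.58, 13.3 and 12.4 FPKM in nanocluster tumours, 2.49, 2.64 and 2.26 in lenvatinib tumours and 1.88, 21.4 and 15.2 in Control. Control spanned from below the lenvatinib libraries to above the nanocluster libraries, so no comparison passed with 9 libraries (log2 fold change 2.04 ± 0.71 SE, adjusted p = 0.063 between the treatments). In a fit of the treated groups alone its adjusted p was 0.000104, and with libraries 1 and 2 of each group alone it was 0.361. Without Control replicate 1 it fell in lenvatinib tumours (log2 fold change -2.65, adjusted p = 0.000161) and its direction in nanocluster tumours against Control turned (-0.61, adjusted p = 0.0355). That fit keeps Control library 2 beside library 3, which was close to a mixture that includes it. With libraries 1 and 2 of each group alone, the adjusted p against Control was 0.591 in lenvatinib and 0.688 in nanocluster tumours. As a share of the summed d subunit FPKM, Atp6v0d2 held 21.4% ± 4.58 in nanocluster tumours, 8.08% ± 0.441 in lenvatinib tumours and 21.4% ± 14.8 in Control (SD, n = 3), and 4.78% in Control library 1 alone. Of the osteoclast markers, Calcr and Oscar were at most 0.129 FPKM in any library, whereas Acp5 and Ocstamp were above 17 FPKM in all.

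The a subunit places the pump in a given membrane. Most of its transcript came from Tcirg1, the a3 subunit gene of lysosomes and osteoclasts, which the naming rule leaves out. It held 69.2% ± 3.05 of the summed a subunit FPKM in nanocluster tumours, 60.2% ± 0.96 in lenvatinib tumours and 66.4% ± 1.95 in Control (SD, n = 3). Atp6v0a1 was at 6.36 to 9.91 FPKM in nanocluster tumours, 6.83 to 7.57 in lenvatinib tumours and 6.96 to 7.39 in Control and passed in no comparison, nor did Atp6v0a2, the Golgi and endosome form (4.95 to 11 FPKM over the 9 libraries). Atp6v0a4, known from acid-secreting kidney cells, was at 0.605, 0.504 and 0.52 FPKM in nanocluster tumours, 0.665, 0.351 and 0.495 in lenvatinib tumours and 1.39, 2.4 and 2.07 in Control. All 6 treated libraries were below all 3 controls, and it fell in nanocluster (log2 fold change -1.21 ± 0.19 SE, adjusted p = 0.00298, limma) and in lenvatinib tumours (log2 fold change -1.28 ± 0.19 SE, adjusted p = 0.00299), with the calls kept without any 1 library. The treated groups share these controls and overlapped each other. The intercalated cell markers Slc4a1 and Slc26a4 were at most 1.12 FPKM in any library.

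Isoforms known from the nervous system varied with single libraries. Atp6v1g2, the neuronal G subunit, was at 8.69, 1.4 and 4.8 FPKM in nanocluster tumours, 1.01, 1.14 and 1 in lenvatinib tumours and 0.646, 0.774 and 0.634 in Control. Atp6v0e2, an e subunit form abundant in brain, was at 7.94, 0.218 and 4.73, 0.246, 2.14 and 1.3 and 0.111, 0.191 and 0.407 FPKM. Lamp5, the LAMP protein of neurons and plasmacytoid dendritic cells, was at 1.12, 0 and 0.549, 0.0581, 0 and 0 and 0, 0 and 0 FPKM and was not tested. In all 3 genes nanocluster library 1 was the highest of the 9 and nanocluster library 2 far lower. Atp6v1g2 passed against Control (log2 fold change 1.94 ± 0.48 SE, adjusted p = 0.0179, limma) and between the treatments (log2 fold change 1.55 ± 0.48 SE, adjusted p = 0.0439), and the first call was lost without nanocluster replicate 3 or Control replicate 3 (adjusted p up to 0.0644). The second passed only with all libraries and without nanocluster replicate 2 or Control replicate 1. Fitted to only the 2 groups compared, neither call passed (adjusted p = 0.0552 and 0.0714). Atp6v0e2 had log2 fold change 2.12 ± 0.87 SE, adjusted p = 0.0921 against Control and did not pass. The 5 neuron markers summed to 35.5, 0.691 and 18.5 FPKM in the nanocluster libraries and 0.855 to 1.29 in the other 6. The 4 adipocyte markers summed to 187, 33.2 and 108 FPKM in nanocluster tumours, 44, 514 and 235 in lenvatinib tumours and 2.11, 0.404 and 8.8 in Control. Their highest and lowest libraries were those of Atp6v0e2 in both treated groups. In Control the adipocyte sum was lowest in library 2 and Atp6v0e2 in library 1. The 4 skeletal muscle markers summed to 26.3, 31.9 and 30.2, 20.9, 3138 and 1242 and 0.237, 1.59 and 29.7 FPKM. They followed the order of Atp6v0e2 in lenvatinib tumours and Control but not in nanocluster tumours. The neuron sum in lenvatinib tumours was 1.01, 1.11 and 1.01. The part of any of these in the 3 genes was not tested.

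**Figure D3:**
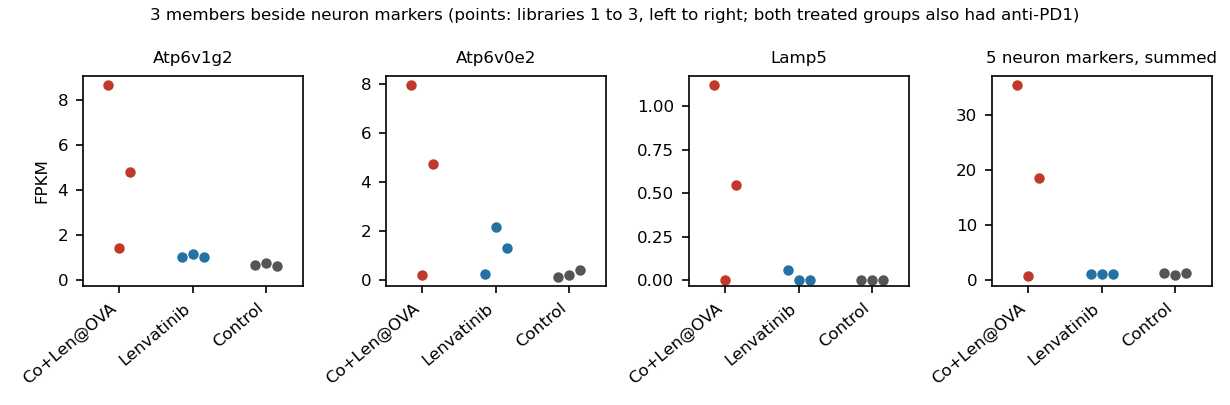
FPKM of Atp6v1g2, Atp6v0e2, Lamp5 and the sum of 5 neuron markers (Snap25, Syt1, Stmn2, Gad1, Slc17a7) in each library, from 1 to 3 within a group. In every panel nanocluster library 1 is the highest and library 3 lies between libraries 1 and 2.

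The other isoforms were near absence. Atp6v1b1, Atp6v1c2, Atp6v1e2, Atp6v0c-ps1 and Atp6v1fnb were all at or under 0.165 FPKM in every library, so the B, C and E subunits came from Atp6v1b2, Atp6v1c1 and Atp6v1e1. Lamp1, the most abundant LAMP gene, was at 191, 191 and 196 FPKM in nanocluster tumours, 102, 123 and 112 in lenvatinib tumours and 105, 174 and 161 in Control. It rose between the treatments (log2 fold change 0.78 ± 0.18 SE, adjusted p = 0.0136, limma), with an adjusted p of 0.0511 without nanocluster replicate 3. Lamp2, which also serves chaperone-mediated autophagy, was at 22.9, 22.5 and 23.8, 16.9, 18.1 and 18.2 and 17.7, 25.8 and 23.6 FPKM. Its treated groups did not overlap, and it did not pass (log2 fold change 0.37 ± 0.12 SE, adjusted p = 0.0542). Lamp3, a marker of mature dendritic cells in human tissue, was at most 0.0399 FPKM in any library. Of the 6 mature dendritic cell markers, Ccr7 and Fscn1 were at 2.38 to 7.53 and 2.56 to 19.5 FPKM in the same libraries. Cd83 was at 2.27 to 8.01 FPKM, Relb at 5.45 to 10.6 and Ccl22 at 0.647 to 2.78. Il4i1 was at most 0.11 FPKM in any library.

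Counted over the 33 tested members, the comparison between the treatments held the most calls. It asks how the nanocluster differed from the free drug. Here 18 members rose in nanocluster against lenvatinib tumours and none fell, 54.5% of those tested, against 17.3% of all 15353 genes that passed as higher and 12% as lower. Of these 18, Ctsh and Ctsl fell in nanocluster tumours against Control. Ctss, Ctsb, Ctsa, Lamp1, Atp6v1a and Atp6v0d1 did not pass there, and the others rose. With median-of-ratios scaling Ctsh, Ctsl, Ctsz, Atp6v0e and Atp6v1c1 lost the call between the treatments. Of all genes, 1991 then passed as higher and 2318 as lower, against 2657 and 1850. By family, 7 of 12 cathepsins, 10 of 19 Atp6v rows and 1 of 2 LAMP genes rose. The median log2 fold change was 0.43 over members and 0.07 over all tested genes, and 32 of the 33 had a positive value. Without Control replicate 1 the count was 24, with none fallen (27.5% and 15.4% of all genes), and without nanocluster replicate 3 it was 9 (7.93% of all genes). Without lenvatinib replicate 1 or 2 it was 10 and 11 (8.94% and 11.5%). The fit without Control replicate 1 keeps Control library 2 beside library 3, which was close to a mixture that includes it. Its spread is too small if library 3 is not a separate tumour.

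Each treatment was also set against Control, to see what changed under it. In nanocluster tumours 10 members rose (30.3%) and 3 fell (9.09%), against 20.9% and 12.7% of all tested genes, with a median of 0.38 over members and 0.13 over all. The 10 were Ctsd, Ctsz, 4 V1 genes, 3 V0 genes and the pseudogene Atp6v0c-ps2, and the 3 were Ctsh, Ctsl and Atp6v0a4. With median-of-ratios scaling, which moved the median of all genes from 0.13 to 0, 7 rose and 5 fell (13.4% and 18.3% of all genes). Without nanocluster replicate 3 the count of rises was 5 (10.5%), and without Control replicate 2 it was 16 (23.9%). In lenvatinib tumours 1 member rose and 6 fell (3.03% and 18.2%), against 13.8% and 9.87% of all genes, with a median of -0.31 over members and 0.05 over all. The 6 were Ctsh, Ctsl, Ctsg, Atp6v0a4, Atp6v0d1 and Atp6v1h. Without Control replicate 1 there were 18 falls, against 17.4% of all genes, the additional ones including Ctss, Ctsb, Ctsc, Ctsd, Ctsa, Lamp1 and Lamp2. That fit has the same limit, as it keeps Control library 2 beside library 3.

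With libraries 1 and 2 of each group alone, no member passed in any of the 3 comparisons in limma. Of all genes, 0.443% passed as higher and 1.93% as lower between the treatments, 0.111% and 0.41% in nanocluster tumours against Control, and 0.215% and 0.13% in lenvatinib tumours. At an unadjusted p under 0.05, 12 members were higher and none lower between the treatments (against 10.4% and 8.28% of all genes). Against Control, 8 were higher and 3 lower in nanocluster tumours (13.6% and 8.4%), and none higher and 4 lower in lenvatinib tumours (9.91% and 6.77%). The log2 fold change of Ctsd was 1.18 against 1.18 with 9 libraries between the treatments, Atp6v0c 0.89 against 0.85, and Ctsh -0.76 against -0.75 in lenvatinib tumours against Control. It moved further for Ctsg in lenvatinib tumours (-1.16 against -1.45) and for Atp6v0d2 in nanocluster tumours against Control (0.71 against 0.38).

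**Figure D4:**
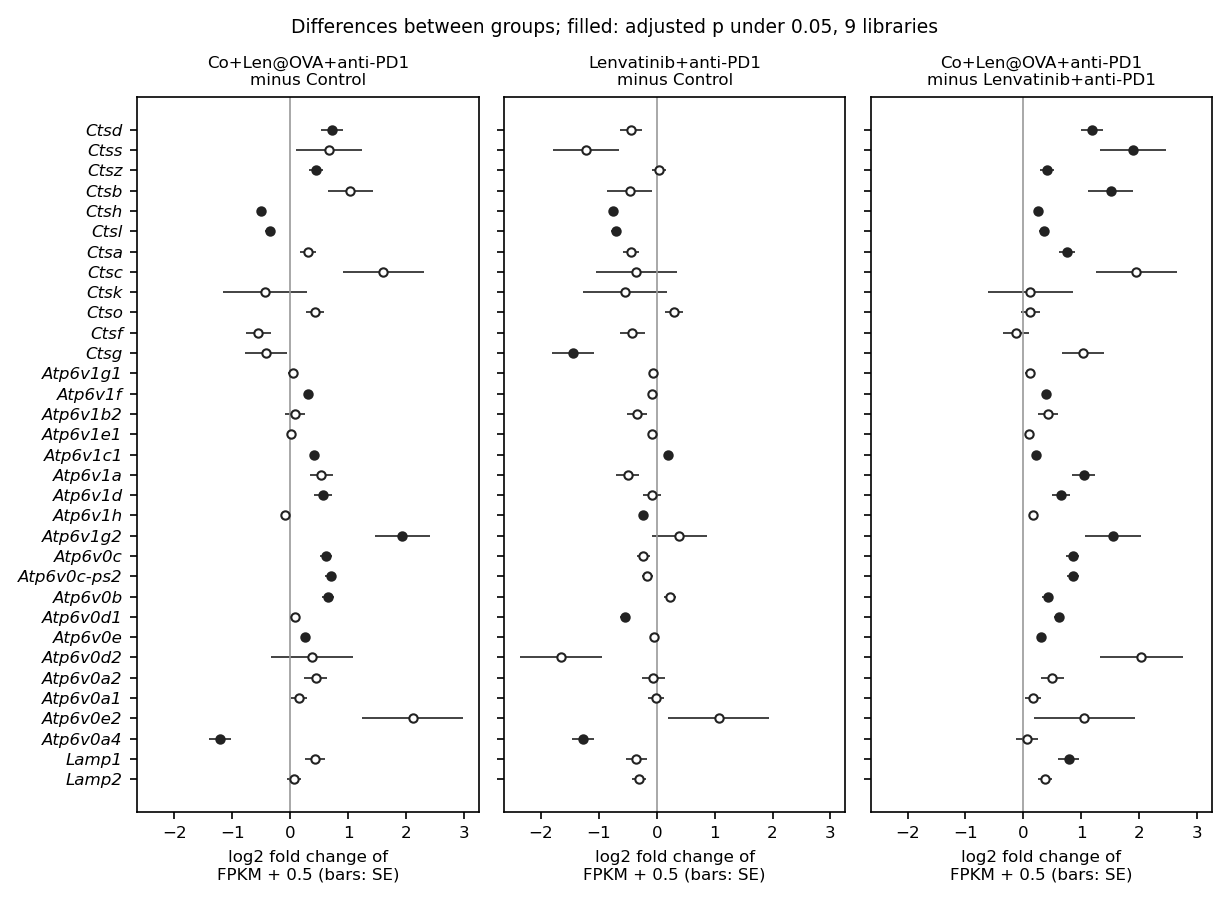
Log2 fold change of FPKM + 0.5 with its SE for the 33 tested members in the 3 comparisons, from the fit of all 9 libraries. Filled points passed an adjusted p of 0.05. In the right panel 18 points are filled, all to the right of 0.

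Macrophage markers moved beside several members. The 10 markers (Adgre1, Cd68, Csf1r, C1qa, C1qb, C1qc, Lyz2, Mrc1, Cd14 and Fcgr1) summed to 2213, 1886 and 2067 FPKM in nanocluster tumours, 482, 575 and 530.2 in lenvatinib tumours and 338, 1384 and 1054 in Control, and none was listed at 0 in any library. The ratios below were chosen after the values were seen and are a description. Of the 10, 6 rose between the treatments, 2 rose in nanocluster tumours against Control and 1 fell in lenvatinib tumours against Control (limma adjusted p). Of all tested genes, 17.3%, 20.9% and 9.87% passed in these directions, so the counts against Control lay near the share of all genes. The ratio of a member to that sum varied least for Ctsb, whose highest ratio was 1.48 times its lowest over the 9 libraries, while Ctsb itself spanned 4.42-fold. The ratio of Ctss varied 2.05-fold, that of Ctsc 2.48-fold and that of Ctsd 2.75-fold. It varied 8.7-fold for Ctsh, 9.22-fold for Ctsl and 6.98-fold for Atp6v1g1, whose own levels varied less, by 1.84-fold, 1.87-fold and 1.26-fold, than the 6.55-fold span of the marker sum. Lyz2, C1qa, C1qb and C1qc were the highest of the 10 markers in every library, so the sum follows them most. Against Csf1r alone, the ratio of Ctss was 10.8 to 17.2 over the 9 libraries. The order of members above belongs to the sum and was not worked out for single markers. The 6 T cell markers summed to 148, 107 and 125, 43.4, 44.1 and 45.8 and 12.6, 55.5 and 42.5 FPKM in nanocluster, lenvatinib and Control libraries. The 4 endothelium markers summed to 28.8, 14.2 and 21, 5.19, 12.9 and 8.23 and 3.54, 16.1 and 12 FPKM. Low sums in lenvatinib tumours and Control library 1 were thus not particular to macrophage markers. The 8 hepatocyte markers went the other way, at 754 to 1059, 3757 to 4003 and 2365 to 5332 FPKM. The part of macrophage or other cell content in the differences between groups was not tested.

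**Figure D5:**
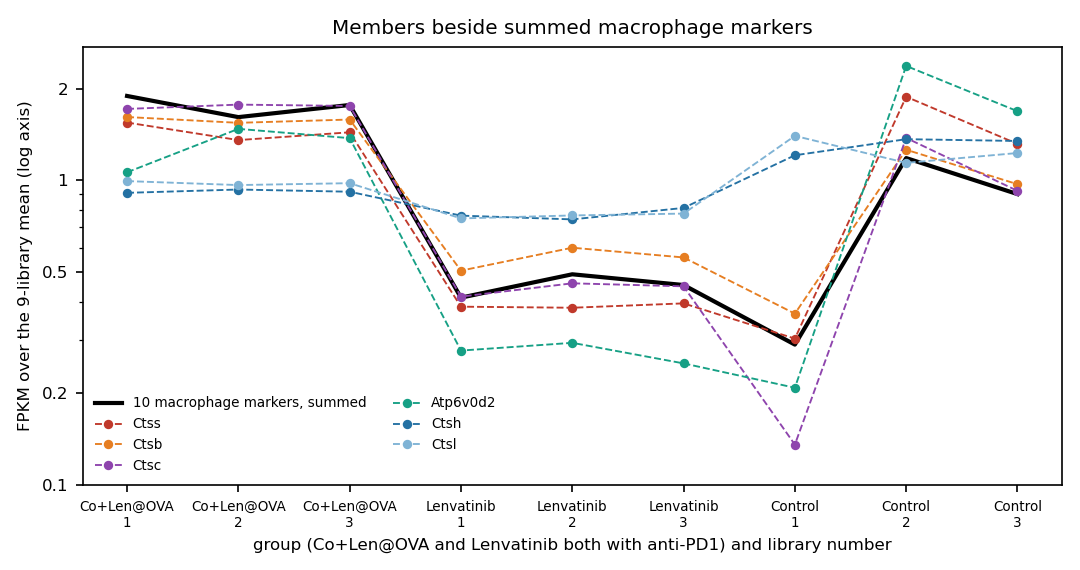
FPKM of 6 members and of the summed macrophage markers in each library, divided by the mean over the 9 libraries (log axis). Ctss, Ctsb, Ctsc and Atp6v0d2 are low in the lenvatinib libraries and Control library 1, as the marker sum is, whereas Ctsh and Ctsl are highest in Control.

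Other genes of the lysosome, taken from 5 lists written by role with earlier results known, were described by the same fit. Of the V-ATPase genes outside the rule (13 tested), 7 rose and none fell between the treatments. Tcirg1 was at 42.7, 41.3 and 41.7 FPKM in nanocluster tumours, 21.4, 21.7 and 22.8 in lenvatinib tumours and 29, 34.9 and 33.6 in Control. It rose against Control (log2 fold change 0.36 ± 0.07 SE, adjusted p = 0.00804, limma) and against lenvatinib tumours (log2 fold change 0.92 ± 0.07 SE, adjusted p = 0.000103), and fell in lenvatinib tumours (log2 fold change -0.55 ± 0.07 SE, adjusted p = 0.0019). With libraries 1 and 2 alone it passed between the treatments (adjusted p = 0.0339). The accessory subunit genes Atp6ap1 and Atp6ap2 rose between the treatments as well (log2 fold change 0.45 ± 0.07 SE, adjusted p = 0.00274, then log2 fold change 0.95 ± 0.17 SE, adjusted p = 0.00531).

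Of 50 lysosomal hydrolases tested, 23 rose and 2 fell between the treatments, 12 rose and 3 fell in nanocluster tumours against Control (24% and 6%, beside 20.9% and 12.7% of all genes), and 3 rose and 10 fell in lenvatinib tumours (6% and 20%, beside 13.8% and 9.87%). The sulfatase gene Arsg fell by 0.81 on the log2 scale between the treatments (limma adjusted p = 8.05e-05, and 0.0392 with libraries 1 and 2 alone). Lyz2 and Lgmn, lysozyme and the asparagine endopeptidase that processes cathepsins, had the largest rises of the list between the treatments. These were log2 fold change 2.23 ± 0.41 SE, adjusted p = 0.00597 for Lyz2 and log2 fold change 1.92 ± 0.48 SE, adjusted p = 0.0203 for Lgmn (limma). Of 39 membrane and transport proteins 22 rose and 1 fell between the treatments. Gpnmb, a glycoprotein of stressed and lipid-filled lysosomes, was at 36, 36.4 and 36.3 FPKM in nanocluster tumours, 6.11, 8.17 and 6.68 in lenvatinib tumours and 14.9, 16.4 and 17.4 in Control, with no overlap between any groups. It rose against Control (log2 fold change 1.14 ± 0.10 SE, adjusted p = 0.000297) and between the treatments (log2 fold change 2.30 ± 0.10 SE, adjusted p = 5.43e-06), fell in lenvatinib tumours (log2 fold change -1.17 ± 0.10 SE, adjusted p = 0.00031), and passed between the treatments with libraries 1 and 2 alone (adjusted p = 0.0097). Between the treatments, the calcium channel gene Mcoln1 and the cholesterol transporter gene Npc1 rose by 0.54 and 0.44 (adjusted p = 0.00194 and 0.0308). Npc1 averaged 10.4 FPKM in nanocluster tumours, 7.48 in lenvatinib tumours and 12.1 in Control. Cd1d1, which presents lipid antigens, fell by 0.85 between the treatments (adjusted p = 0.0007). It was at 5.31, 4.49 and 4.64 FPKM in nanocluster tumours, 8.22, 9.75 and 9.28 in lenvatinib tumours and 3.65, 4.29 and 4.36 in Control. The lenvatinib libraries were thus the highest, and the nanocluster libraries lay above Control.

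Of 42 regulators of lysosome formation tested, 16 rose and none fell between the treatments, and 10 rose and none fell in nanocluster tumours against Control (23.8%, beside 20.9% of all genes). The transcription factor genes Tfeb and Tfe3 were not among them: Tfeb was at 4.57, 5.2 and 5.19 FPKM in nanocluster tumours, 3.45, 4.68 and 4.38 in lenvatinib tumours and 3.9, 5.76 and 5.39 in Control (log2 fold change 0.24 ± 0.15 SE, adjusted p = 0.261 between the treatments). Tfe3 differed by 0.21 ± 0.09 (SE, limma adjusted p = 0.0946). Mitf, their relative, was at 0.594 ± 0.14 FPKM in lenvatinib and 1.65 ± 0.214 in nanocluster tumours (SD, n = 3). It rose between the treatments (limma adjusted p = 0.048). In Control it was at 0.352, 1.65 and 1.23 FPKM, from below the lenvatinib libraries into the nanocluster range. Of 12 cathepsin inhibitors tested, 6 rose and 3 fell between the treatments. Cst3, the secreted inhibitor cystatin C, was at 265, 218 and 245 FPKM in nanocluster tumours, 152, 162 and 160.2 in lenvatinib tumours and 187, 228 and 216 in Control (log2 fold change 0.61 ± 0.10 SE, adjusted p = 0.00287 between the treatments). Ctla2a, a cathepsin L propeptide-like inhibitor, rose by 2.46 (adjusted p = 0.000103) and its relative Ctla2b by 1.58 (0.00167). The cytosolic inhibitor Cstb did not pass (log2 fold change 0.16 ± 0.08 SE, adjusted p = 0.171). The 3 that fell, Kng1, Kng2 and Hrg, encode plasma proteins of the liver, and the 8 hepatocyte markers all fell between the treatments. Over all 5 lists, 74 of 156 genes rose (47.4%) and 6 fell (3.85%), beside the 17.3% and 12% of all genes. Lyz2 and Cd68 stand in these lists and among the macrophage markers. With libraries 1 and 2 alone, 4 rose (among them Tcirg1, Gpnmb and Ctla2a) and 2 fell (Arsg and Hrg).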

How the data were processed

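Poly(A) RNA of 9 tumour libraries was sequenced as paired reads, per the labels' protocols. The deposited values are FPKM per gene, per the file headers, and fastp, StringTie and edgeR are named in the submitters' processing notes. No aligner or genome build is named in the labels or headers used here. Only 15.2% to 25.1% of low values lay within 0.02 of a whole fragment count, so fragment numbers could not be rebuilt and depth is unknown. FPKM totals were 331611 to 372794, with 23575 to 26298 genes above 0.

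From these, log2(FPKM + 0.5) was fitted with limma 3.58.1 (R 4.3.3, trend and robust) over 15353 genes whose 9 libraries averaged 0.5 FPKM or more, in 1 model of all 9 libraries (6 residual degrees of freedom). Fold changes are on that scale and understate changes of low genes. P-values are two-sided, with Benjamini-Hochberg adjustment over all tested genes and a threshold of 0.05. Nothing in the labels ties libraries to separate animals, so p-values measure the spread between these libraries. Rose and fell refer to this fit.

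Values in every library were given for a set of members of each family and for the members with the 6 largest changes that passed with a mean of at least 2 FPKM. Of the lists, the 2 largest changes in each direction and a set of named genes were given. One gene of the lists is counted but not reported by name here. Atp6v1c1, Atp6v1f and further members given by library, and the marker genes set beside Ctsk, Ctsg and the neuronal isoforms, were chosen after their values were seen. The members, lists, markers and rules were chosen with earlier results of these data known. Alternatives were other scalings, pseudocounts of 0.1 and 1, other filters, fits of 2 groups, no trend, a replicate block, each library left out, and libraries 1 and 2 alone.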

Additional observations from a re-analysis of the deposited data

How the results depend on the processing

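Of the 38 calls of members over the 3 comparisons, 38 were kept with a pseudocount of 0.1 or 1, 35 with upper quartile scaling, 29 with median-of-ratios scaling, 30 with only the 2 groups compared, and 0 with libraries 1 and 2 alone, a fit with fewer libraries. Changes of direction among members that passed in neither setting were not counted. With libraries 1 and 2 alone, 0 members rose or fell in any comparison, 0 list genes rose or fell in either treatment against Control, and 4 list genes rose and 2 fell between the treatments. Leaving out each library in turn gave 5 to 16 rises and 3 to 4 falls of members in nanocluster tumours against Control, 0 to 1 and 4 to 18 in lenvatinib tumours, and 9 to 24 and 0 between the treatments. For list genes the ranges were 23 to 57 and 7 to 14, 4 to 7 and 18 to 83, and 40 to 112 and 5 to 6, in the same order. The 1 rise in lenvatinib tumours became 0 with median-of-ratios or upper quartile scaling, no filter, only 2 groups, or no trend. In nanocluster tumours against Control, 5 members and 25 list genes rose with only 2 groups fitted, against 10 and 39. Median-of-ratios scaling gave 5 falls of members against 3, and 23 rises and 21 falls of list genes against 39 and 9, while upper quartile scaling gave 15 falls. Of all genes in that comparison, 3209 rose and 1946 fell, against 2060 and 2817 with median-of-ratios scaling and 2499 and 2435 with upper quartile scaling. Median-of-ratios scaling gave 1991 and 2318 between the treatments, against 2657 and 1850. In lenvatinib tumours the list genes that rose were 4, against 7, with no filter or only 2 groups. Without Control replicate 1, Atp6v0d2 in nanocluster tumours against Control turned from 0.38 to -0.61 (limma adjusted p = 0.0355), within a range of -0.61 to 0.99 over the libraries left out. With libraries 1 and 2 alone it was 0.71 (limma adjusted p = 0.688). With the replicate block, 9 members rose and 3 fell in nanocluster tumours against Control, 1 and 4 in lenvatinib tumours, and 16 and 0 between the treatments. Same-numbered libraries correlated at -0.25 to 0.08 in their deviations from the group mean, and 0 of 9 correlated best with their own number. No pairing by number was thus seen. With library 3 close to a mixture of the others, the deviations within a group are not independent, so this check cannot exclude a pairing. Depth is unknown, so no limit from counting can be given.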
